A study of Solanum lycopersicum with 8 samples.

Results

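Chromosomes 5 and 11 of tomato are the 2 of 12 chromosomes on which the leaf list of accessible chromatin regions (ACRs) held more regions in the first 20% of the chromosome than in the last 20%. They were chosen by that count, and they carried 8939 of the 69690 ACRs listed (12.8%), with 4729 on chromosome 5 and 4210 on chromosome 11. The list of chromatin loops held 1248 of its 9573 loops there (13.04%), with 643 on chromosome 5 and 605 on chromosome 11. The leaf list comes from ATAC-seq, which marks open chromatin by the cuts of a transposase, on 6 replicates of the cultivar M82, each made from 1 g of young-leaf terminal leaflets. Loops came from Hi-C, which reads out contacts by joining DNA fragments that were near each other in the nucleus, in 2 replicates of inflorescences of the anantha-e1546 mutant in the M82 background, harvested from different plants 10 weeks after sowing. In this mutant the inflorescence keeps forming meristems in place of flowers. The labels are not uniform on the leaf plants, since their growth protocol names the mutant and their genotype reads M82, which was followed.

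Both lists pool all replicates of their assay and hold no value per replicate, so the spread between replicates is unknown. The depth behind an ACR or a loop is unknown as well. The leaf list is in SL4.0 coordinates. The loop list names no assembly, and its last anchor lay past the last ACR by 3.27 Mb on chromosome 5 and by 5.17 Mb on chromosome 11, where this difference was the widest among the 12 chromosomes. Each list is therefore described in its own coordinates, and no gene is named. The extent of a chromosome runs from position 1 to the end of its last ACR or last anchor bin. The start side is its first 20%, the end side its last 20% and the interior the middle 60%, and ACRs and loops were placed by their midpoints.

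In tomato, genes are densest in the euchromatic outer arms, and a large repeat-rich pericentromeric block fills the middle of most chromosomes. Accessible regions are often promoters and enhancers, where nucleosomes are displaced by transcription factors. Chromatin loops bring such distant sites near each other, and loop callers list pairs of bins that touch more often than their distance alone predicts.

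The values that chose both chromosomes were as follows. Chromosome 5 held 2309 ACRs on its start side, against 1713 on its end side, a density of 177 against 131 ACRs per Mb over sides of 13.05 Mb. Chromosome 11 held 1887 on its start side, against 1582 on its end side, or 174 against 146 ACRs per Mb over sides of 10.9 Mb. The start side of chromosome 5 was thus 1.35-fold as dense as its end side, and that of chromosome 11 was 1.19-fold as dense. The nearest chromosomes below this limit were chromosome 12, with 1776 at the start against 2009 at the end, and chromosome 9, with 1901 against 2388. These counts are a description of the choice and were not tested.

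The start sides were dense and the end sides sparse when set beside the same side of the other 10 chromosomes. The start sides of chromosomes 5 and 11 ranked first and second of 12 in ACR density, against a median of 108 and a highest value of 139 ACRs per Mb, on chromosome 9, among the others. The end sides ranked last and next to last, against a lowest value of 151 ACRs per Mb, on chromosome 12, and a median of 256 among the others. By number of ACRs, the end sides of chromosomes 5 and 11 were also the lowest of 12, and the next was the 2009 of chromosome 12. Both chromosomes thus had more ACRs at the start and fewer at the end than most others. These ranks partly restate the counts that chose them and were not tested. Accessible sequence covered 15.5% of the start side and 11.6% of the end side of chromosome 5, and 15.0% of the start side and 12.5% of the end side of chromosome 11. Among the others the medians were 9.87% at the start and 23.7% at the end.

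The fullest windows held similar numbers of ACRs on both sides of a chromosome. Windows of 1 Mb were ranked on each side of the chromosome's midpoint. On chromosome 5 the 3 fullest before the midpoint were at 2 to 3 Mb with 336 ACRs, at 0 to 1 Mb with 304 and at 1 to 2 Mb with 294. Its fullest past the midpoint were at 64 to 65 Mb with 340 ACRs, at 62 to 63 Mb with 326 and at 63 to 64 Mb with 298. On chromosome 11 the fullest before the midpoint were at 3 to 4 Mb with 297 ACRs, at 1 to 2 Mb with 270 and at 0 to 1 Mb with 253, and those past it were at 51 to 52 and 53 to 54 Mb with 269 each and at 52 to 53 Mb with 245. Within 5 Mb of the tips, chromosome 5 held 1478 ACRs at the start and 1345 at the end, and chromosome 11 held 1287 at the start and 1254 at the end. The log2 ratio of start to end was 0.14 and 0.04 in these outer 5 Mb, against 0.43 and 0.25 in the full sides. On chromosome 5 this total covered opposite contrasts. Its outer 2 Mb held 299 ACRs per Mb at the start and 334 at the end. Between 2 and 5 Mb it held 293 at the start and 226 at the end. On chromosome 11 these densities were 261.5 and 262 in the outer 2 Mb, and 255 and 243 between 2 and 5 Mb.

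As a ratio of start to end, the contrast was larger further in. Between 5 and 10 Mb from the tip, chromosome 5 held 137 ACRs per Mb at the start and 62.4 at the end, and chromosome 11 held 110 at the start and 64.2 at the end. At this distance the starts of both were denser than the start of each other chromosome, whose highest value was 85.6 ACRs per Mb, and the ends were sparser than the end of each other chromosome, whose lowest value was 110 ACRs per Mb. Between 10 and 20 Mb chromosome 5 held 32.9 ACRs per Mb at the start and 12.3 at the end, and chromosome 11 held 33.5 at the start and 16.6 at the end. Counted window by window from the tip, chromosome 5 kept at least 100 ACRs per Mb for 8 windows at the start and for 6 at the end. Chromosome 11 did so for 6 windows on each side. With at least 50 ACRs per Mb the run was 9 windows at the start and 8 at the end of chromosome 5. On chromosome 11 it was 11 windows at the start and 8 at the end. In the other 10 chromosomes the run of windows with at least 100 ACRs had a median of 4 at the start and 11.5 at the end. Their highest run at the start was 6, the same as on chromosome 11. With at least 50 ACRs their median was 6.5 at the start, with a highest value of 9, and 16 at the end.

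**Figure D1:**
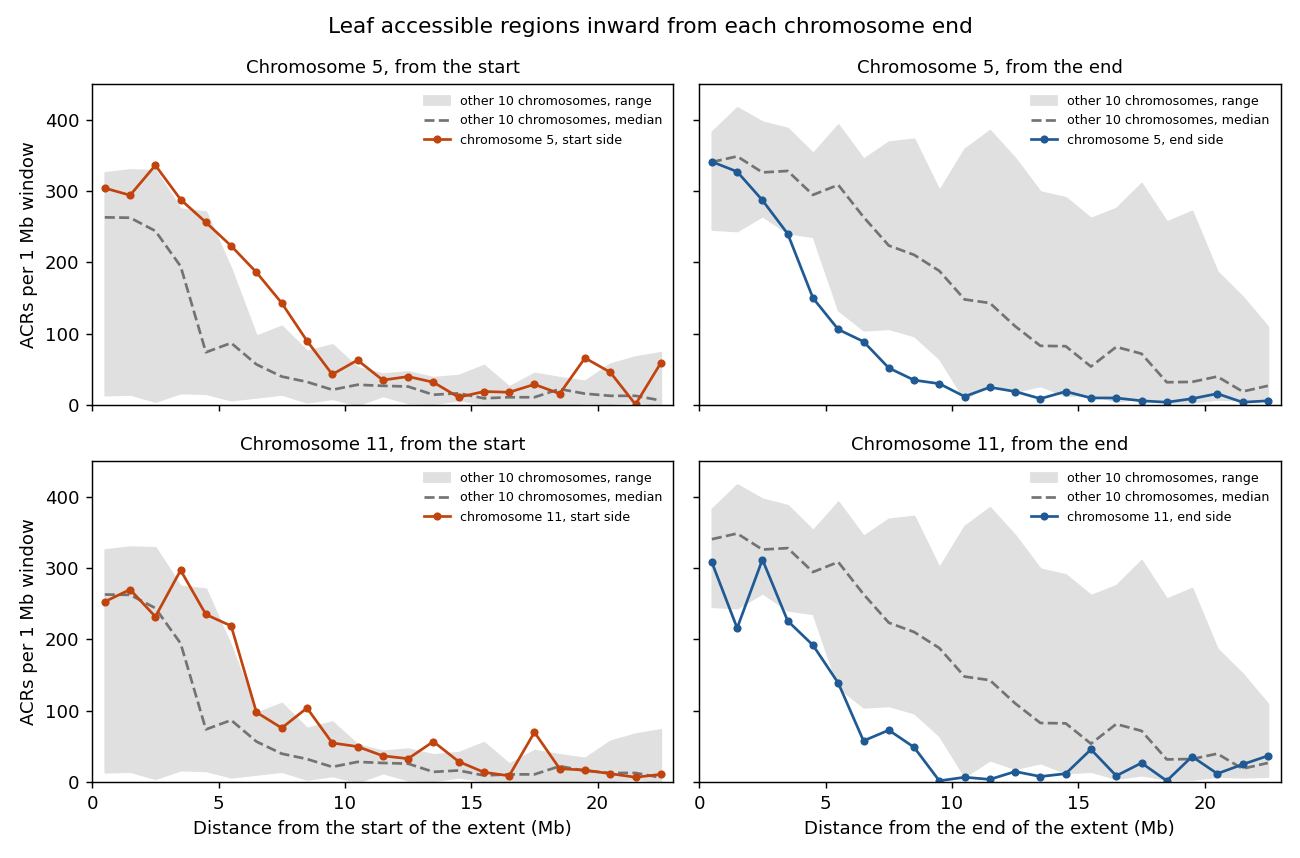
ACRs per 1 Mb window (vertical axis) by distance from the start (left) or the end (right) of the extent in Mb, for chromosome 5 (top) and chromosome 11 (bottom); the grey band is the range and the dashed line the median of the other 10 chromosomes. Between 5 and 10 Mb the start sides run above or inside the band and average 137 and 110 ACRs per Mb; the end sides average 62.4 and 64.2 ACRs per Mb and lie below it, except at 5 to 6 Mb of chromosome 11, where the window holds 139 ACRs and lies inside the band.

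The decline from the tip was gradual on the start side of chromosome 5. Its first 10 windows held 304, 294, 336, 288, 256, 223, 186, 143, 90 and 43 ACRs. From the end, windows of 1 Mb counted inward held 341, 327, 287, 240, 150, 106, 89, 52, 35 and 30 ACRs. The start of chromosome 11 stayed at 219 to 297 ACRs for 6 windows and was at 98 in the seventh. Its end held 308, 216, 312, 226, 192 and 139 ACRs in the outer 6 windows, 58 in the seventh and 2 in the tenth. Of the ACRs before the midpoint of chromosome 5, the median lay 4.48 Mb from the tip, against 3.07 Mb for those past it. On chromosome 11 these distances were 4.29 Mb at the start and 3.65 Mb at the end. At the end these were the shortest such distances of the 12 chromosomes, against 4.43 Mb or more among the other 10.

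Median ACR widths lay within 3 bp of each other on the start and end sides of 20%, and up to 27.5 bp apart under other sizes of the sides and other filters. The median width on chromosome 5 was 671 bp at the start (quartiles 459 and 991 bp) and 672 bp at the end (463 and 1039 bp). On chromosome 11 it was 657 bp at the start (quartiles 451 and 994 bp) and 660 bp at the end (453 and 1013 bp). In the other 10 chromosomes the start side was the narrower by a mean of 22.7 bp, with a range from 64 bp narrower on chromosome 3 to 13.5 bp wider on chromosome 9. The mean difference of chromosomes 5 and 11, start minus end, exceeded that of the others by 20.7 bp, which did not pass an exact two-sided permutation test over all 66 choices of 2 of 12 chromosomes (p = 0.258, adjusted 0.341). Here and below, p-values are adjusted over the 5 measures tested in this way. The chromosomes come from 1 pooled list and are no biological replicates, and a p here says only how far this pair stands from the other 10. The smallest p that the test can give is 0.0152, and a single measure at that value would have an adjusted p of 0.0758, so the design could not carry 1 measure alone past the 0.05 threshold.

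The close medians of whole sides covered differences by distance from the tip. On chromosome 5 the median width was 679 bp in the outer 2 Mb of the start and 715 bp in the outer 2 Mb of the end. Between 5 and 10 Mb it was 666 bp at the start and 617 bp at the end, and between 10 and 20 Mb it was 656 bp at the start and 558 bp at the end. Chromosome 11 had medians of 689 bp at the start and 734 bp at the end in the outer 2 Mb, medians of 629 bp at the start and 611 bp at the end between 5 and 10 Mb, and medians of 597 bp at the start and 639 bp at the end between 10 and 20 Mb. At 10 to 20 Mb the start thus had the wider ACRs on chromosome 5 and the narrower ones on chromosome 11. In windows of at least 200 ACRs the medians were 675 bp at the start and 714 bp at the end of chromosome 5, and 675 bp at the start and 698 bp at the end of chromosome 11. The interior medians of 617 bp on chromosome 5 and 600 bp on chromosome 11 were the lowest of the 12 chromosomes, the next being 628 bp on chromosome 1.

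Median spacing over whole sides was also close, but it differed by distance from the tip. The median gap between neighbouring ACRs on chromosome 5 was 858 bp at the start and 845 bp at the end, and on chromosome 11 it was 944 bp at the start and 992 bp at the end. Gaps under 1 kb made up 53.7% at the start and 53.9% at the end of chromosome 5, and 50.8% at the start and 50.0% at the end of chromosome 11. In the outer 2 Mb the median gap was 784 bp at the start and 653 bp at the end of chromosome 5. On chromosome 11 it was 838.5 bp at the start and 876 bp at the end. Between 2 and 5 Mb, start and end medians were 810 and 782 bp on chromosome 5, and 818 and 903 bp on chromosome 11. On chromosome 5 the end thus had the shorter median gap near the tip. Between 5 and 10 Mb the median gap on chromosome 5 was 1017 bp at the start and 1944 bp at the end. Between 10 and 20 Mb it was 1464 bp at the start and 7190 bp at the end. On chromosome 11 it was 1267 bp at the start and 1655 bp at the end between 5 and 10 Mb, and 2417 bp at the start and 4608 bp at the end between 10 and 20 Mb. Among the other 10 chromosomes the end side had the shorter whole-side median gap except on chromosome 9, with medians over chromosomes of 911 bp at the start and 720 bp at the end. Gaps follow the density that chose the chromosomes and were not tested.

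The sides differed instead in their long empty stretches. Only gaps with both neighbouring ACRs on the same side were counted, so a gap across the border of a side was left out. Gaps over 50 kb counted in this way took up 4.27 Mb of the start side of chromosome 5 (32.8%) and 5.80 Mb of its end side (44.4%). On chromosome 11 they took up 2.36 Mb of the start side (21.7%) and 3.77 Mb of the end side (34.7%). The start sides of both chromosomes had the lowest such shares of the 12, the next being 40.2% on chromosome 3, and the median of the other 10 was 50.4%. At the end side the median of the others was 10.4%, and chromosome 5 had the highest share of all. The longest gap counted on chromosome 11 was 0.293 Mb at the start side and 1.04 Mb at the end side. On chromosome 5 the longest counted was 0.505 Mb at the start side and 0.446 Mb at the end side. A longer stretch crossed from the interior into the end side on each chromosome and was not counted. It ran from 51484474 to 52650454 on chromosome 5 (1.17 Mb) and from 42550850 to 43690743 on chromosome 11 (1.14 Mb). The shares of the end sides leave out the parts of these stretches that lie in them. How much of these stretches is assembly gap or repeat where reads cannot be placed was not examined.

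**Figure D2:**
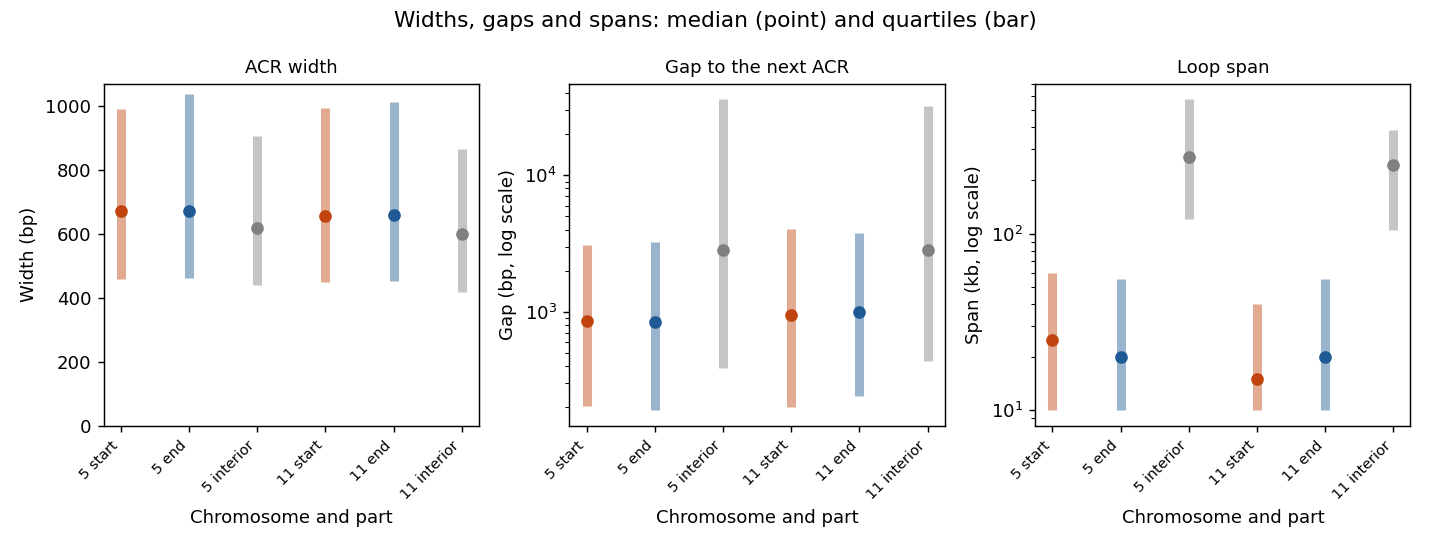
Median (point) and quartiles (bar) of ACR width in bp, of the gap to the next ACR in bp (log scale) and of loop span in kb (log scale) on the start side (red), the end side (blue) and in the interior (grey) of chromosomes 5 and 11. The start and end medians lie close together, at 671 and 672 bp for width on chromosome 5, while interior gaps and spans are longer.

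The authors' −log10 q per ACR, the strength of a call against background, was likewise close between sides. Its median was 2.63 at the start and 2.61 at the end of chromosome 5, and 2.58 at the start and 2.54 at the end of chromosome 11. The difference, start minus end, averaged 0.03 on these chromosomes and −0.08 on the other 10, and the exact two-sided permutation test gave p = 0.364 (adjusted 0.364). The authors' score, which has a ceiling of 1000, stood at the ceiling for 44.9% of ACRs at the start and 42.6% at the end of chromosome 5, and for 43.7% at both the start and the end of chromosome 11.

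The ACRs with the highest −log10 q did not favour 1 side. On chromosome 5 they spanned 62543815 to 62545618 at the end side, with 14.8, and 1605549 to 1607104 and 4034224 to 4041434 at the start side, with 14.4 and 13.8 (SL4.0). On chromosome 11 the highest, 17.4, spanned 9562835 to 9566387 at the start side, and the others, 14.5 and 14.3, lay at the end side, at 47451201 to 47452822 and 45993163 to 45996685. The widest ACR of chromosome 5 spanned 59484576 to 59494996 at the end side, 10.4 kb. Its next widest lay at the start side, at 2578672 to 2586940 (8.27 kb) and 8974781 to 8982646 (7.87 kb). The 3 widest of chromosome 11 were all at the start side, of which the first spanned 4897564 to 4908981, 11.4 kb, and the second spanned 7235836 to 7246084, 10.2 kb.

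The interiors of both chromosomes were sparse, with local groups of ACRs. Chromosome 5 held 707 ACRs in its interior, or 18.1 per Mb, the fewest of any chromosome by number, and chromosome 11 held 741, or 22.7 per Mb. The median interior window held 14 ACRs on chromosome 5 and 15.5 on chromosome 11. The fullest interior windows were at 19 to 20 Mb of chromosome 5, with 66 ACRs, and at 17 to 18 Mb of chromosome 11, with 70. A second group on chromosome 11 held 60 ACRs at 30 to 31 Mb and 63 at 31 to 32 Mb. Of the interior ACRs of chromosome 5, 452 lay before the midpoint of the chromosome and 255 past it, whereas on chromosome 11 these counts were 373 and 368.

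The longest stretches without an ACR lay in the interior or beside it. On chromosome 5 they ran from 33225146 to 34425831 (1.20 Mb), from 31845489 to 33012008 (1.17 Mb) and from 51484474 to 52650454 (1.17 Mb). On chromosome 11 they ran from 42550850 to 43690743 (1.14 Mb), from 43918503 to 44962300 (1.04 Mb) and from 35361299 to 36174194 (0.813 Mb). A single full 1 Mb window of chromosome 5 held no ACR, and each full window of chromosome 11 held at least 1.

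The inflorescence loops, which were not used to choose the chromosomes, were also more numerous at the start. Chromosome 5 had 342 loops on its start side and 231 on its end side, or 24.96 against 16.86 loops per Mb, and chromosome 11 had 272 on its start side and 226 on its end side, or 22.8 against 19.0. The start held 59.7% of the loops of both sides together on chromosome 5 (95% exact binomial interval 55.5 to 63.7%) and 54.6% on chromosome 11 (50.1 to 59.1%). Such intervals cover counting error only, and loops that share bins are not independent. The log2 ratio of start to end was 0.57 on chromosome 5 and 0.27 on chromosome 11, and it was below 0 on each of the other 10, from −3.27 on chromosome 2 to −0.16 on chromosome 12. All 12 chromosomes had the same sign in the loop list as in the leaf list.

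**Figure D3:**
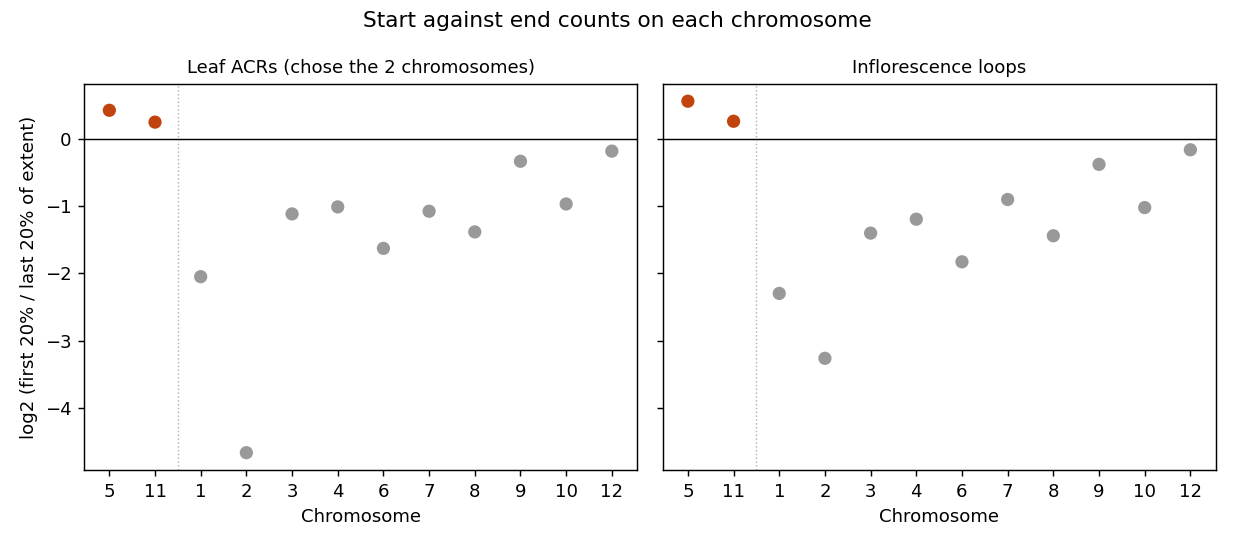
Log2 ratio of the count in the first 20% to the count in the last 20% of the extent (vertical axis) for each chromosome, with chromosomes 5 and 11 in red left of the dotted line and the other 10 in grey, for leaf ACRs (left) and inflorescence loops (right). In both lists the red points alone lie above 0; the left panel shows the count that chose them, and the loop values are 0.57 and 0.27.

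The mean loop ratio of chromosomes 5 and 11 was 0.42, against −1.39 ± 0.91 (SD, n = 10 chromosomes) for the others, a difference of 1.80 on the log2 scale. The exact two-sided permutation test gave p = 0.0303 before adjustment and 0.152 after adjustment over the 5 measures, which does not pass the threshold. Without chromosome 2, which has the lowest ratio, the difference was 1.60 (exact permutation p = 0.0182, adjusted 0.0909). That p is the smallest the test can give without chromosome 2, so this measure alone could not pass the threshold after adjustment. In loops per Mb the start sides of chromosomes 5 and 11 ranked 1 and 2 of 12, against a highest value of 19.9 on chromosome 9 among the others, and the end sides ranked 11 and 10, with chromosome 12 lowest at 16.5. By number of loops the start sides ranked 1 and 3, with 273 on chromosome 9 between them, and the end sides ranked 11 and 12, with 232 on chromosome 12 next.

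The loops reached further in from the start than from the end on chromosome 5, but not on chromosome 11. Of the loops before the midpoint of chromosome 5, the median lay 4.42 Mb from the tip, against 3.31 Mb for those past it. On chromosome 11 these distances were 4.165 Mb at the start and 4.79 Mb at the end. Within 5 Mb of the tips chromosome 5 had 211 loops at the start and 180 at the end, and chromosome 11 had 183 at the start and 149 at the end. Between 5 and 10 Mb chromosome 5 had 19.8 loops per Mb at the start and 8.60 at the end, whereas chromosome 11 had 17.2 at the start and 15.2 at the end. At this distance the end of chromosome 5 had the fewest loops of any end, and that of chromosome 11 ranked 10 of 12 from the highest. Distances at the end run from the last anchor, so this band may not be the same sequence as that band in the leaf list. The loop-richest windows of chromosome 5 were at 0 to 1 Mb with 58 loops before the midpoint and at 67 to 68 Mb with 40 past it. Those of chromosome 11 were at 3 to 4 Mb with 50 loops and at 56 to 57 Mb with 36.

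**Figure D4:**
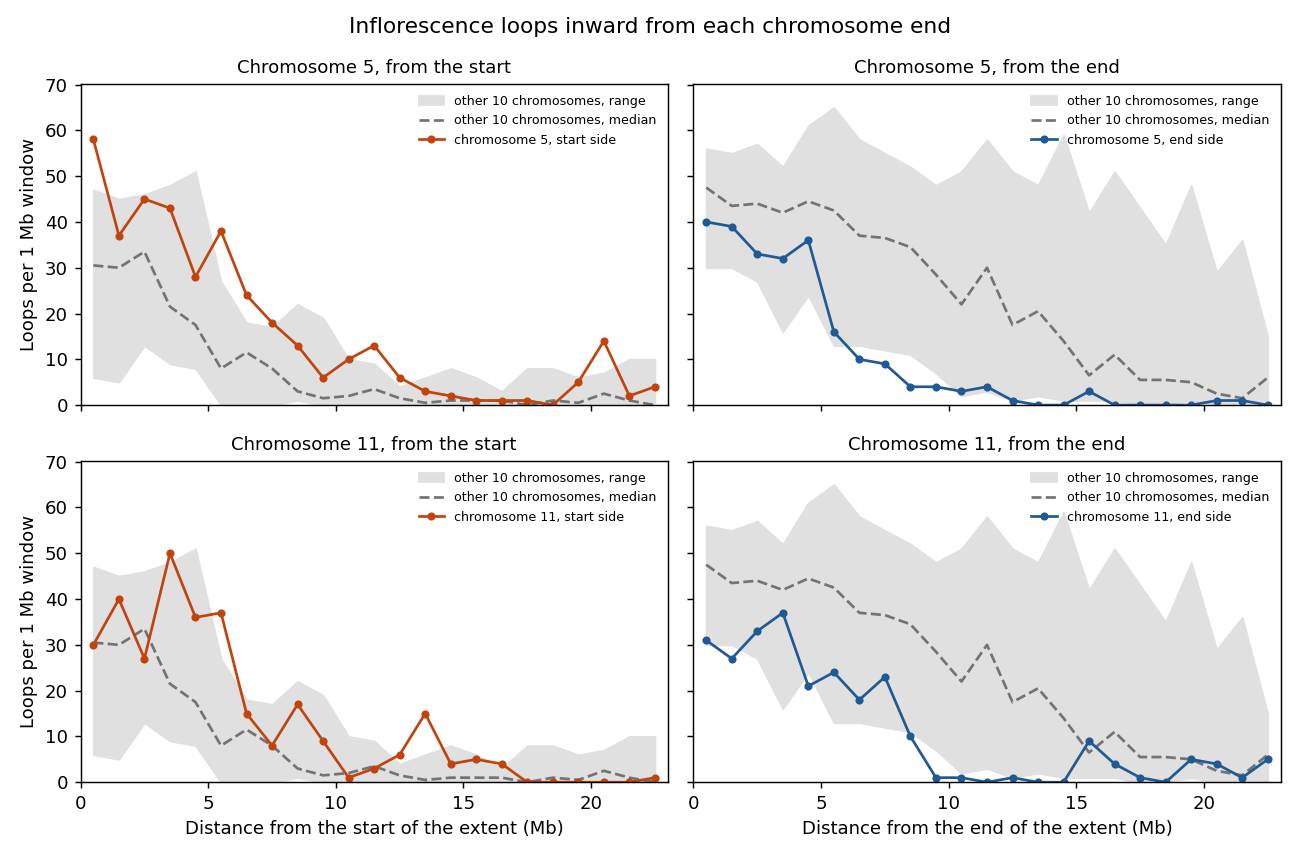
Loops per 1 Mb window (vertical axis) by distance from the start (left) or the end (right) of the extent in Mb, in the coordinates of the loop list, for chromosome 5 (top) and chromosome 11 (bottom); the grey band is the range and the dashed line the median of the other 10 chromosomes. Within 5 Mb of the tips chromosome 5 had 211 loops at the start and 180 at the end, and chromosome 11 had 183 at the start and 149 at the end.

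The loops that made up the surplus at the start differed in span between the chromosomes. On chromosome 5, loops of 10 kb, the shortest span listed, numbered 133 at the start and 92 at the end, and longer loops numbered 209 at the start and 139 at the end. On chromosome 11, loops of 10 kb numbered 134 at the start and 90 at the end, but longer loops were nearly equal, with 138 at the start and 136 at the end. Without the 10 kb loops the log2 ratio was 0.59 on chromosome 5 and 0.02 on chromosome 11, so the loop surplus of chromosome 11 rested on the shortest span. In the other 10 chromosomes the end side had more of these longer loops in each case, the closest being chromosome 12 with 119 at the start and 122 at the end.

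Median loop spans were close between the start and end sides of 20%. The median span was 25 kb at the start and 20 kb at the end of chromosome 5, and 15 kb at the start and 20 kb at the end of chromosome 11, so the medians differed in opposite directions. With geometric mean spans in place of medians the log2 ratio was −0.03 on chromosome 5 and −0.37 on chromosome 11, the same direction on both. One step of span is 5 kb, the bin size of the list. Among the other 10 chromosomes the start side had the longer median on 8, and on chromosome 2 the medians were 345 kb at the start and 10 kb at the end. The log2 ratio of medians averaged −0.05 on chromosomes 5 and 11 and 1.18 on the others (exact two-sided permutation p = 0.273, adjusted 0.341).

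Loops of 10 kb made up 38.9% of the loops at the start of chromosome 5 (95% exact binomial interval 33.7 to 44.3%) and 39.8% at its end (33.5 to 46.5%). On chromosome 11 the shares were 49.3% at the start (43.2 to 55.4%) and 39.8% at the end (33.4 to 46.5%). The start side of chromosome 11 had the highest such share of the 12 start sides. The difference, start minus end, averaged 4.25 percentage points on chromosomes 5 and 11 and −13.4 on the others, where it was negative on 10 of 10. The exact two-sided permutation test gave p = 0.0758 (adjusted 0.189).

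Loops over 200 kb were scarce on both start sides. They numbered 13 of 342 at the start of chromosome 5 (3.80%, 95% exact binomial interval 2.04 to 6.41%) and 20 of 231 at its end (8.66%, 5.37 to 13.1%). On chromosome 11 they numbered 11 of 272 at the start (4.04%, 2.04 to 7.12%) and 17 of 226 at the end (7.52%, 4.44 to 11.8%). These were the lowest shares among the 12 start sides, where the median of the other 10 was 11.9%, while among the 12 end sides only chromosome 10, at 9.60%, was above both, and the median of the other 10 was 1.90%. Within each chromosome the intervals of the start and the end overlap, but overlap is no test of the difference, which was not tested. Loops of 45 to 200 kb made up 30.4% of those at the start and 22.5% of those at the end of chromosome 5, and 19.85% and 23.01% of those at the start and end of chromosome 11.

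**Figure D5:**
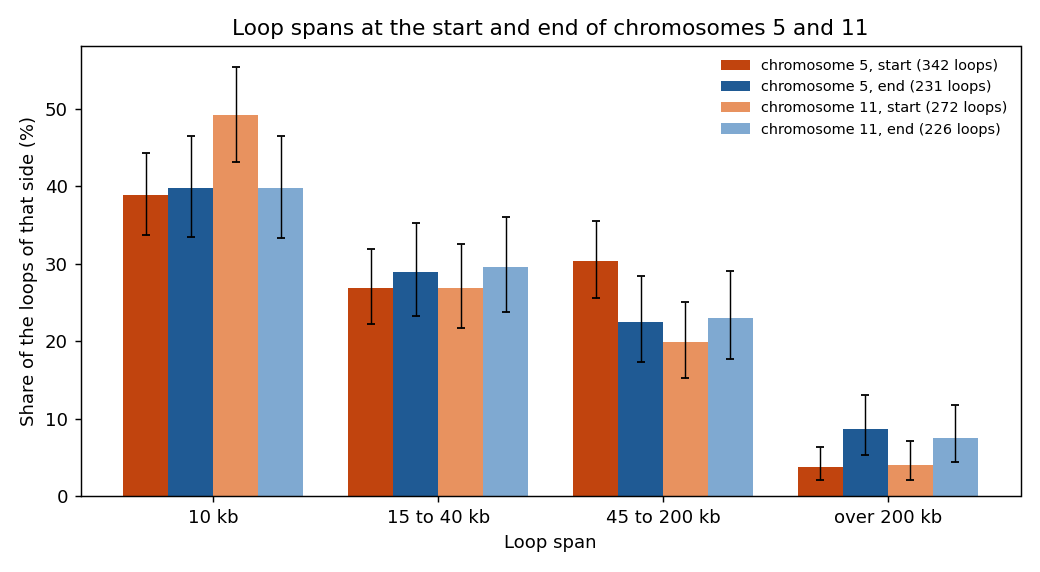
Share of the loops of a side (percent, vertical axis) in 4 classes of span for the start and end sides of chromosomes 5 and 11; bars start at 0 and error bars are 95% exact binomial intervals, which cover counting error only. Loops over 200 kb made up 3.80% and 4.04% at the starts of chromosomes 5 and 11, and 8.66% and 7.52% at their ends.

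Spans were longer further in than at the tips, although not at each step. On chromosome 5 the median span in the outer 2 Mb was 25 kb at the start and 10 kb at the end. Between 2 and 5 Mb it was 10 kb at the start and 30 kb at the end, and between 5 and 10 Mb it was 35 kb at the start and 80 kb at the end. On chromosome 11 the median in the outer 2 Mb was 10 kb on both sides, and between 5 and 10 Mb it was 30 kb at the start and 72.5 kb at the end. In the interior the median was 270 kb over the 70 loops of chromosome 5 and 245 kb over the 107 loops of chromosome 11. Loops over 200 kb made up 58.6% of the interior loops of chromosome 5 and 57.0% of those of chromosome 11.

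Interior loops were unevenly spread. On chromosome 5 the window at 20 to 21 Mb held 14 loops, and 16 of 41 interior windows held none. On chromosome 11 the window at 35 to 36 Mb held 18 loops, and 12 of 36 held none. The interior loops of chromosome 5 lay mostly before its midpoint, with 52 there and 18 past it, and those of chromosome 11 mostly past its midpoint, with 41 before it and 66 past it. The longest stretches without an anchor ran from 33565001 to 39080000 on chromosome 5 (5.52 Mb) and from 17390001 to 22330000 on chromosome 11 (4.94 Mb), in the coordinates of the loop list.

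The longest loops joined bins 1000 kb apart, the longest span in the list. On chromosome 5 the longest joined the bins at 29760001 to 29765000 and 30760001 to 30765000, and on chromosome 11 the bins at 16385001 to 16390000 and 17385001 to 17390000. Both lay in the interior. Anchor bins that joined at least 2 loops made up 17.6% of the bins at the start and 18.3% at the end of chromosome 5, and 17.3% at the start and 16.7% at the end of chromosome 11. The busiest bin of chromosome 5 lay on the start side, from 270001 to 275000, and that of chromosome 11 on the end side, from 53990001 to 53995000, with 5 loops each.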

How the data were processed

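Values were taken from 2 lists that the authors deposited, with 1 list for the 6 leaf ATAC-seq replicates and 1 for the 2 inflorescence Hi-C replicates. Genrich 0.6 and HiC-Pro 3.1.0 are the versions stated, per the submitters' processing notes, which also list BWA, SAMtools, bedtools, Picard and Trimmomatic. The file names add FitHiC for the loops. Settings are not stated. The authors' score and −log10 q per peak were used only within the list. Listed q-values reach 0.135, with 2115 above 0.05. Peak starts were taken to be zero-based, as in BED, and are given 1-based. Loop anchors are midpoints of 5 kb bins. The 547 ACRs on unplaced sequence were left out.

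Start and end sides were compared per chromosome, and 5 measures of chromosomes 5 and 11 were set against the other 10 by an exact two-sided permutation test over chromosomes with Benjamini-Hochberg adjustment (Python 3.11.15, NumPy 2.4.6, pandas 2.3.3, SciPy 1.17.1). The ACR start-to-end ratio, the permutation test on that ratio and the ACR width difference were checked on simulated ACR lists. The loop, gap and −log10 q measures were not simulated. Both chromosomes, and the measures described, were chosen with earlier results of these data known. Positions named are the fullest windows on each side of the midpoint, the longest empty stretches, the strongest and widest ACRs, the longest loops and the busiest anchors on each chromosome. The counts within 5 Mb, the bands by distance, the runs of full windows, the long gaps, the span classes and the second interior group were added after the lists had been seen. Alternatives covered the size of the sides, ACR filters and merging, loop placement, loops without 10 kb spans and leaving out chromosome 2.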

Additional observations from a re-analysis of the deposited data

How the results depend on the processing

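The start surplus of ACRs kept its direction on both chromosomes under each alternative run. Its log2 ratio moved beyond its counting interval only with narrower sides: on chromosome 5 it was 0.27 with sides of 10% and 0.14 with sides of 5 Mb, and on chromosome 11 it was 0.10 with sides of 10%, 0.14 with sides of 15% and 0.0375 with sides of 5 Mb, a width chosen after seeing the data. The log2 ratio of median gaps, 0.02 on chromosome 5 and −0.07 on chromosome 11, has no stable sign. On chromosome 5 it was −0.48 for ACRs at or above the median score, −0.0153 with ACRs within 150 bp merged, −0.00554 for ACRs of at least 300 bp and −0.00738 for those with q at or below 0.05. On chromosome 11 it was 0.16 at or above the median score and 0.00124 with merging. The difference in −log10 q between chromosomes 5 and 11 and the others, 0.11 as reported, was −0.0623 at or above the median score. The difference in median width, start minus end, was −1 bp on chromosome 5 and ranged from −27.5 to 20 bp. On chromosome 11 it was −3 bp and ranged from −21 to 6 bp, and with mean widths the difference was 7.91 bp. The sign of the width difference is thus not stable. Relative to the others it ranged from 11.1 to 66.3 bp, against 20.7 bp as reported. The log2 ratio of spans on chromosome 5, 0.32 as reported, was −0.03 with geometric means. On chromosome 11 this ratio was −0.42 with sides of 20%, −0.58 with sides of 10%, −1 with sides of 15% and 0 with sides of 5 Mb. The difference in the share of 10 kb loops, start minus end, has no stable sign on chromosome 5. It was −0.94 percentage points there with sides of 20%, 1.03 with sides of 10%, 1.05 with sides of 15% and 1.33 with sides of 10 Mb. On chromosome 11 it stayed positive under the alternatives, from 3.94 to 11.2. The causes were not tested. No tested measure passed after adjustment under any alternative: the adjusted p ranged from 0.0909 to 0.227 for the loop ratio, from 0.177 to 0.621 for width, from 0.273 to 0.727 for −log10 q, from 0.303 to 0.364 for span and from 0.0758 to 0.341 for the share of 10 kb loops. The difference in the loop ratio ranged from 0.996 to 1.97. No paired analysis was possible because both lists pool their replicates, and no replicate could be left out. Depth is unknown for both lists, so a stretch without an ACR or a loop sets no limit on what is there.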
